A study of Homo sapiens with 12 samples.

Results

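The regions described here are the 4026 stretches of BrdU-labelled DNA that were listed in IMR90 fibroblasts and overlapped no region, by even 1 bp, in the lists of H1 control cells and of Saos-2 cells. They were chosen by these 3 lists alone and make up 70.1% of the 5743 IMR90 BrdU regions, and 4026 of the 169273 regions in all 6 lists of the study. The remaining 1717 IMR90 regions overlapped H1 control or Saos-2 and are called shared: 864 met both lists, 676 met Saos-2 only and 177 met H1 control only. By the same rule, 3163 of the 5086 H1 control regions and 4059 of the 6272 Saos-2 regions were found in their own line alone. The Saos-2 list also covered more, 2.06 Mb against 1.08 Mb in H1 control. Counts and gaps to these 2 lists were not adjusted for that.

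Bromodeoxyuridine (BrdU) is a thymidine analogue that replicating cells build into new DNA, so an antibody against it recovers stretches copied while the label was present. Human DNA replication starts at many origins in an order set partly by cell type, with gene-rich, open chromatin usually copied early. H3K18ac is an acetyl group on a lysine of histone H3. It is placed mainly by the acetyltransferases p300 and CBP and is known as a mark of active promoters and enhancers.

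The tested library came from IMR90, a human lung fibroblast line, at passages 7 to 12 and without siRNA. It was set against Saos-2, an osteosarcoma line that likewise had no siRNA, and against H1 embryonic stem cells at passages 35 to 45. The H1 cells carried non-targeting siRNA and the kinase inhibitor HA 1077 at 10 µM and were collected after 72 h, so the H1 list differs from the IMR90 list in treatment as well as in cell type. A further BrdU list came from H1 cells that received siRNAs against EP300 and CREBBP in place of the non-targeting one. H3K18ac lists came from IMR90 and from H1 without siRNA. Each group had 1 library, so no difference between lists could be tested against the spread of replicates, and a region missing from a list may have narrowly failed its threshold. Library depth is unknown. The files hold no genes, so the labelled cell types could not be checked against markers here. All positions are in hg19.

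The IMR90-alone regions were small and weak within their own list. Their median width was 100 bp, which is 1 window of the authors' grid, and their mean was 138 bp; shared regions had a median of 300 bp and a mean of 385 bp. Of the IMR90-alone regions 3096 (76.9%, 95% Wilson interval 75.6 to 78.2) spanned 1 window, against 434 shared regions (25.3%, 23.3 to 27.4) and 61.5% of all IMR90 BrdU regions. Small width was not particular to this line. Regions found by the same rule in H1 control alone or in Saos-2 alone also had a median of 100 bp. Single windows made up 84.4% of H1-alone regions, against 62.9% of that list, and 53.6% of Saos-2-alone regions, against 39.1%. The widest measured 1200 bp among IMR90-alone regions and 3400 bp among shared ones. Together the 4026 regions covered 556 kb, which was less than the 661 kb covered by the 1717 shared ones. Only 28 IMR90-alone regions reached 600 bp, or 7.57% of the 370 IMR90 regions of that width, whereas 87.7% of the 3530 single windows were IMR90-alone. Width and score were read from the list that chose the members, and a wider region meets another list more readily, so these values describe the choice and were not tested.

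**Figure D1:**
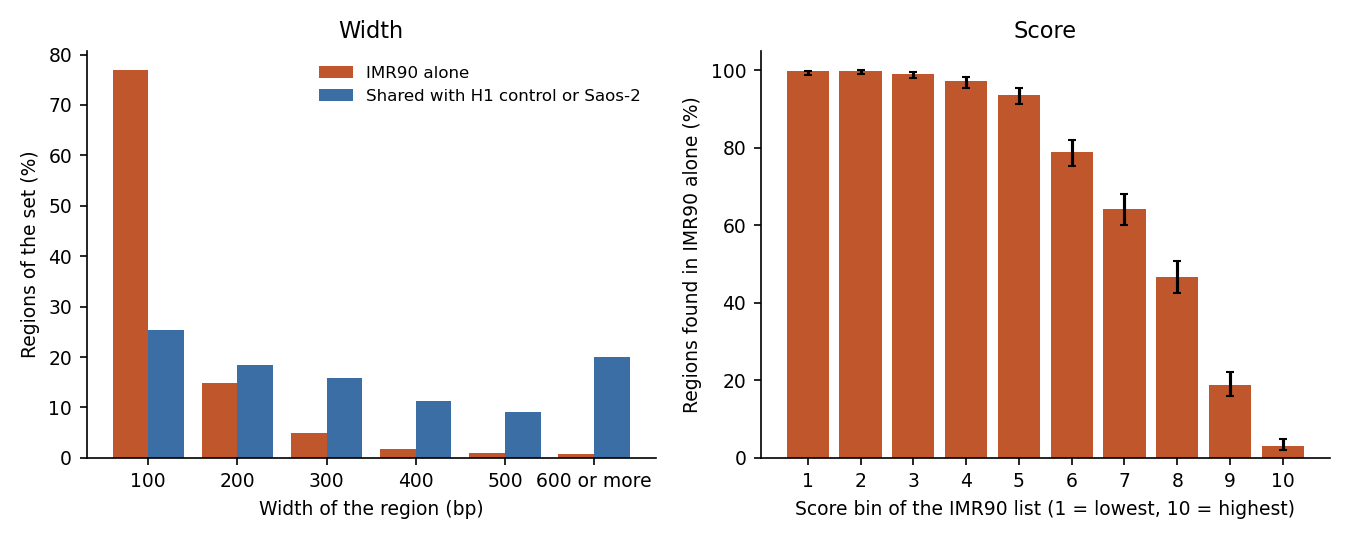
Left, width in bp of regions found in IMR90 alone and of shared IMR90 regions, as a percentage of each set. Right, percentage of IMR90 BrdU regions found in IMR90 alone in each of 10 score bins, with Wilson 95% intervals; the share is 99.7% in the lowest bin and 3.13% in the highest.

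The authors' score, a whole number per region of unstated meaning, was used only to rank regions within a list. The median score was 55 for IMR90-alone regions and 438 for shared ones, and 30.4% of the IMR90-alone regions (29.0 to 31.8) lay in the upper 50% of the IMR90 list, against 96.5% of the shared ones. Low rank was likewise seen in the other lines. In the upper 50% of their own lists lay 21.6% of H1-alone and 32.1% of Saos-2-alone regions. By 5 equal score bins, from low to high, the IMR90-alone share was 99.7%, 98.2%, 86.2%, 55.4% and 10.97%. The same order held at a fixed width: single windows had a median score of 45 when IMR90-alone and 140 when shared, and 300 bp regions 224 and 474. No IMR90-alone region stood among the 200 highest scores of the list. There were 11 among the 500 highest and 82 among the 1000 highest.

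The strongest IMR90-alone region was chr9:96058201-96059300, 1100 bp wide, with a score of 1242 and rank 227. The nearest H1 control region lay 29.7 kb away and the nearest Saos-2 region 55.2 kb away, and the next IMR90 region was 180 kb distant. The region ranked 311, chr10:111986201-111987300, stood still more apart, with no other IMR90 region within 692 kb and no Saos-2 region within 2686 kb, although an H1 control region lay at 54.6 kb. Others of the 10 highest had close IMR90 neighbours. The region chr1:44370201-44371200 (rank 333) lay 0.6 kb from another IMR90 region, and chr7:637701-638200 (rank 430) lay 0.3 kb from one, the smallest gap the list allows. The widest of all, chr14:93524901-93526100 at 1200 bp, held rank 406 and was 36.4 kb from an H1 control region and 287 kb from a Saos-2 region.

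Among the 10 highest, nearness to the other cell lines also varied. The region chr1:236248801-236249500 (rank 441) lay 15.3 kb from a position that both other lines listed, chr1:236264801-236265300 in H1 control and chr1:236264801-236265400 in Saos-2. The region chr12:124951501-124952300 (rank 445) was 0.9 kb from an H1 control region. On chromosome 16, chr16:86155001-86155600 (rank 379) and chr16:1789501-1790100 (rank 437) were both at least 58.7 kb from either list. The tenth, chr14:105338401-105338800 (rank 467), lay 8 kb from Saos-2 and 12 kb from H1 control. These 10 regions thus had their nearest region of another line at distances between 0.9 and 174 kb.

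At the edge of the rule, 180 IMR90-alone regions (4.47%) touched a region of another line end to end without sharing a base: 145 touched Saos-2 and 53 touched H1 control. Their median score was 125. The highest were chr17:6097201-6097700 (rank 529), which ended where the H1 control region chr17:6097701-6097800 began, and chr15:91190201-91190800 (rank 711), which began where a Saos-2 region ended. The next, chr22:23844101-23844700 (rank 743), touched Saos-2 and lay 0.1 kb from H1 control. Just outside the rule were 513 shared regions that overlapped the other lists by 100 bp in all, with a median score of 168. The highest of these was chr4:6513101-6514300 (1200 bp, rank 116), of which 100 bp lay in an H1 control region. It was followed by chr9:132215501-132216900 (rank 167) and chr20:61084101-61085800 (rank 179), also joined to H1 control by 100 bp.

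Over all IMR90-alone regions, the median gap to the other lines was 83.1 kb to H1 control, 64.7 kb to Saos-2 and 40.8 kb to the nearer of both. The Saos-2 list held more regions, 6272 against 5086, so the smaller gap to it is not read as closer likeness. Within 1 kb of either line there were 406 (10.1%, 9.19 to 11.1), within 10 kb 1015 (25.2%, 23.9 to 26.6) and within 100 kb 2861 (71.1%, 69.6 to 72.4). Those closer in had higher scores, with medians of 104 within 1 kb, 63 from 1 to 10 kb, 55 from 10 to 100 kb and 42 beyond 100 kb. Per tile of 100 kb, 2949 tiles held an IMR90-alone region, and 1452 of these (49.2%) also held a BrdU region of H1 control or Saos-2. No background share was computed for these distances or tiles, so they do not show whether the regions lay unusually near or far.

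Within the IMR90 list, IMR90-alone regions lay farther from their neighbours than shared ones did. The median gap to the next IMR90 region was 43.8 kb for IMR90-alone regions and 20.7 kb for shared ones. Another IMR90 region lay within 10 kb of 860 IMR90-alone regions (21.4%, 20.1 to 22.7) and of 652 shared regions (38.0%, 35.7 to 40.3), and within 1 kb of 4.74% (4.13 to 5.45) and 19.1% (17.3 to 21.0). In the other lists, the corresponding median gap was 92.3 kb for the 3163 of 5086 regions found in H1 control alone. It was 37.6 kb for the 4059 of 6272 found in Saos-2 alone. Joining IMR90-alone regions with gaps of up to 10 kb left 3383 of them single, 257 pairs and 38 groups of 3 or more, the largest of 6. A shared region was within 10 kb of 316 IMR90-alone regions (7.85%).

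**Figure D2:**
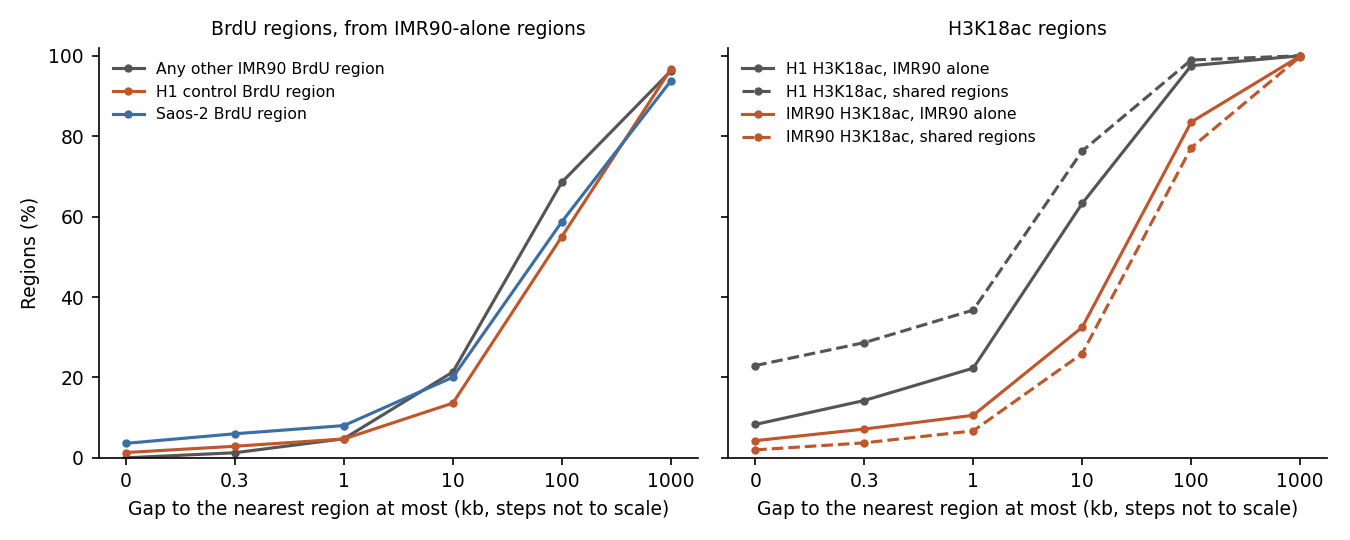
Percentage of regions whose gap to the nearest listed region is at most the distance on the x axis (kb, steps not to scale). Left, from IMR90-alone regions to BrdU regions: 25.2% lie within 10 kb of another line. Right, from IMR90-alone (solid) and shared regions (dashed) to H3K18ac, where a gap of 0 includes overlap.

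A few tiles were crowded. The tile chr9:137600001-137700000 held 8 IMR90-alone regions beside 3 shared ones, and also 7 H1 control and 5 Saos-2 regions. Its IMR90-alone regions were at most 200 bp wide and ranked between 1646 and 4615. The tile chr2:1500001-1600000 held 7 beside 1 shared region, with 1 H1 control and 4 Saos-2 regions. The third, chr6:34000001-34100000, held 6 beside 3 shared regions, the same number as 4 further tiles. All 3 named tiles lay where the other lines had BrdU regions too, and none of their 21 IMR90-alone regions overlapped H3K18ac in either list. This was not so in all crowded tiles: in another tile with 6, on chromosome 8, 3 of the 6 overlapped H1 H3K18ac.

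On the autosomes, 4002 IMR90-alone regions were spread at 1.43 per Mb, taken over the span between the outermost regions of any list. Their density was highest on the gene-rich chromosomes 19 (4.44 per Mb, 261 regions) and 22 (4.02 per Mb, 140 regions), followed by chromosomes 17 (2.97) and 20 (2.60). The lowest were chromosomes 4 (0.633 per Mb, 121 regions), 6 (0.796), 18 (0.846) and 3 (0.850). The highest and the lowest differed 7.01-fold. Regions found in Saos-2 alone and in H1 control alone were likewise densest on chromosome 19, at 6.63 and 2.11 per Mb. Across the 22 autosomes, the density of IMR90-alone regions had a Spearman correlation of 0.841 with that of shared regions, 0.848 with Saos-2-alone and 0.756 with H1-alone regions; these share the span in the denominator and, for shared regions, the library, and are given as descriptions.

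As a share of the IMR90 list the spread was much narrower. IMR90-alone regions were 70.1% of the list over all autosomes and ranged from 54.6% (46.05 to 62.9) on chromosome 21 to 81.2% (74.6 to 86.3) on chromosome 15. Chromosomes 22, 4 and 16 were also low, at 62.5% (56.0 to 68.6), 61.7% (54.8 to 68.3) and 64.2% (58.7 to 69.3), and the interval of each of these 5 chromosomes left out the overall 70.1%. The 2 densest chromosomes differed: chromosome 19 stood at 71.9% (67.1 to 76.3), near the overall share, and chromosome 22 below it. With 22 intervals of 95%, about 1 would miss the share of 70.1% if counting error were the only source of spread. The intervals treat regions as independent, which neighbouring regions are not, so they are too narrow and the misses were not tested.

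**Figure D3:**
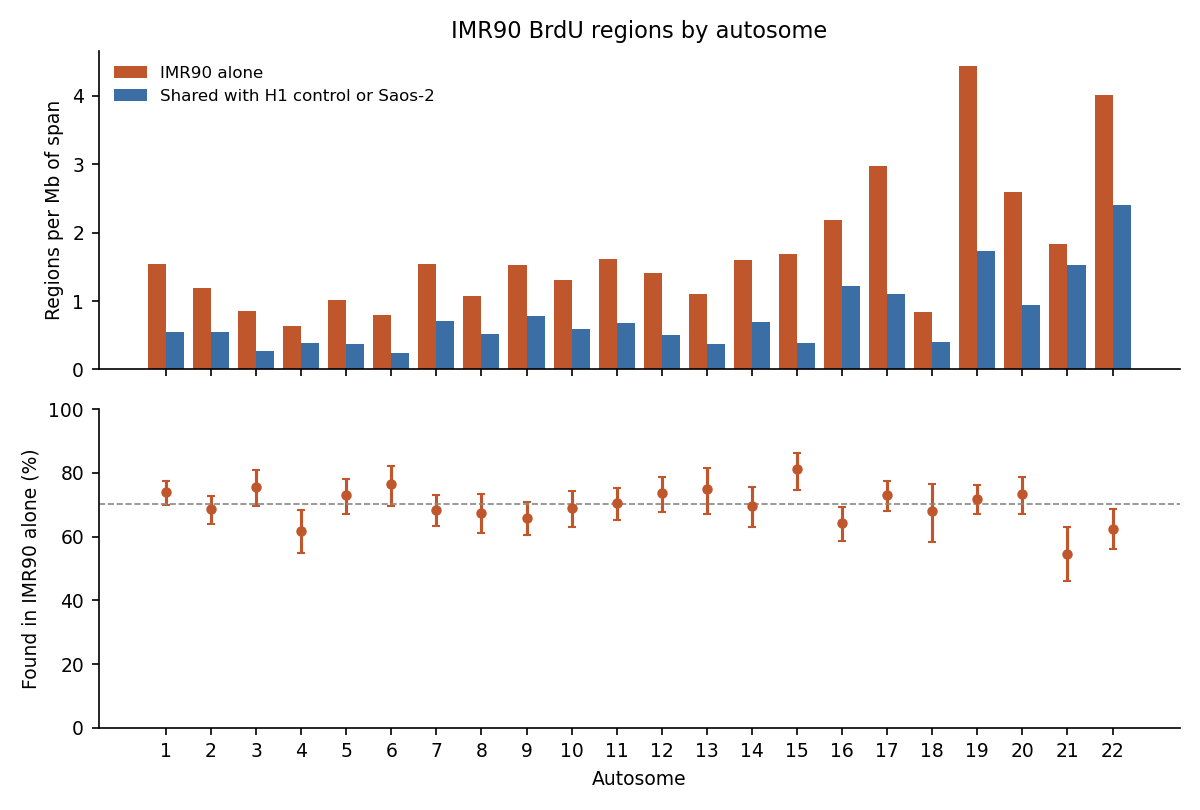
Top, IMR90-alone and shared IMR90 BrdU regions per Mb of each autosome's span. Bottom, percentage of IMR90 BrdU regions found in IMR90 alone with Wilson 95% intervals; the dashed line is 70.1%, and chromosome 21 is lowest at 54.6%.

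Along the chromosomes, IMR90-alone regions sat farther from the ends than shared ones. Within 5 Mb of the outermost listed region there were 1043 of 4002 IMR90-alone regions (26.1%, 24.7 to 27.4) and 708 of 1708 shared ones (41.5%, 39.1 to 43.8). The median distance was 16.9 Mb for IMR90-alone regions and 7.40 Mb for shared ones. The share near the ends was larger at higher scores within the IMR90-alone set, at 15.9%, 23.9%, 28.4%, 38.6% and 54.8% in the 5 bins from low to high. In the highest bin it exceeded the 41.8% (38.8 to 44.8) of shared regions, with an interval of 46.1 to 63.2. In bin 4 the shares were alike within counting error, at 38.6% (34.9 to 42.5) and 39.2% (35.1 to 43.5) of shared regions. In the middle bin the IMR90-alone share was below the 47.1% (39.5 to 54.9) of shared regions. The lower bins held only 3 and 21 shared regions. By comparison, 14.9% of H1-alone and 31.7% of Saos-2-alone regions lay within 5 Mb of the ends.

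H3K18ac of H1 cells, which had no part in choosing the regions, was found at 213 IMR90-alone regions (5.29%, 4.64 to 6.03), against 332 shared regions (19.3%, 17.5 to 21.3) and 9.49% of all IMR90 BrdU regions. The difference, IMR90-alone minus shared, was -14.0 percentage points (-16.1 to -12.1). The shared share came mostly from regions met by both other lines, at 25.6% (22.8 to 28.6), and from those met by Saos-2 only, at 15.4% (12.9 to 18.3). Regions met by H1 control only stood at 3.95% (1.93 to 7.94), within counting error of IMR90-alone regions. Among regions of a single line, the IMR90-alone share lay between 2.69% (2.18 to 3.31) for H1-alone regions and 6.78% (6.04 to 7.59) for Saos-2-alone regions. These sets differed in width. At single windows the IMR90-alone share of 4.36% (3.70 to 5.14) was within counting error of the Saos-2-alone share of 4.60% (3.80 to 5.56). The H1-alone share there was 2.47% (1.95 to 3.13). Intervals treat regions as independent and cover counting error only; neighbouring regions are not independent, and each list is 1 library.

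H3K18ac of IMR90 itself was found at fewer of them, although that list covers 39.5 Mb against 15.7 Mb in H1. It overlapped 112 IMR90-alone regions (2.78%, 2.32 to 3.34), against 28 shared regions (1.63%, 1.13 to 2.35) and 2.44% of all IMR90 BrdU regions. Here the IMR90-alone share was the higher one, by 1.15 percentage points (0.298 to 1.90). With IMR90-alone regions weighted to the shared ones, the difference was 0.554 over 5 score bins, 0.468 over widths and -0.0033 over 10 score bins. The last value rests partly on 18 IMR90-alone regions in the highest of the 10 bins, of which 0 were marked. With shared regions weighted to IMR90-alone ones, the difference was 0.991 over 5 score bins and 1.22 over widths. The unweighted interval included 0 in single windows (-0.531 to 2.28) and in the upper 50% of the IMR90 list (-0.281 to 1.88). H1-alone regions stood at 2.62% (2.12 to 3.24) and Saos-2-alone regions at 2.51% (2.07 to 3.04), so the mark of IMR90 was not more frequent, beyond counting error, at regions of its own line. The lists covered 1.32% and 0.525% of the span, for IMR90 and H1, which is the share a single window placed without regard to the mark would meet. Cut by score to the covered length of the H1 list, the IMR90 list met 0.919% (0.668 to 1.26) of IMR90-alone regions.

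How IMR90-alone and shared regions compared in H1 H3K18ac depended on score. In the middle of 5 score bins, 77 of 991 IMR90-alone regions (7.77%, 6.26 to 9.60) and 2 of 158 shared regions (1.27%, 0.348 to 4.50) overlapped the mark, the opposite of the whole list. In the next bin the shares were alike within counting error, at 9.43% (7.40 to 12.0) and 9.96% (7.66 to 12.9). In the highest bin 10 of 126 IMR90-alone regions (7.94%, 4.37 to 14.0) and 279 of 1023 shared regions (27.3%, 24.6 to 30.1) were marked. Single windows gave the same in the middle bin, with 56 of 730 IMR90-alone (7.67%, 5.95 to 9.83) and 2 of 150 shared regions (1.33%, 0.366 to 4.73). Within the highest bin the scores were not matched, with medians of 429 for IMR90-alone and 739 for shared regions.

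**Figure D4:**
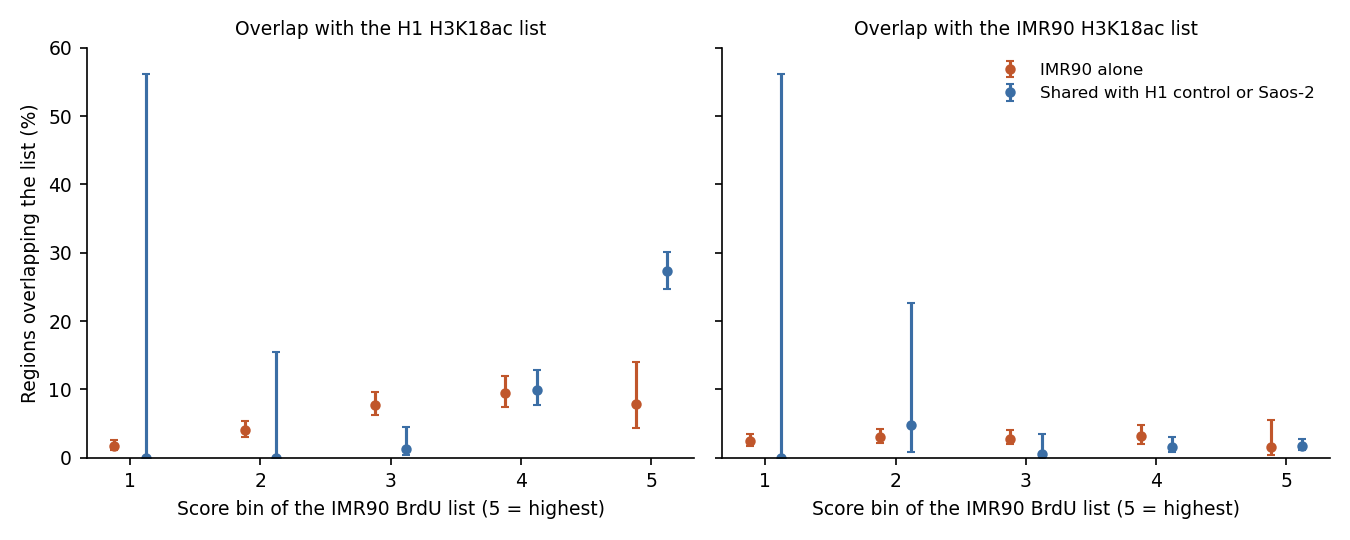
Percentage of IMR90 BrdU regions that overlap the H1 (left) and the IMR90 (right) H3K18ac list, in 5 score bins, with Wilson 95% intervals. IMR90-alone regions range from 1.75% to 9.43% in H1 H3K18ac, while shared regions reach 27.3% in the highest bin; the 2 lowest bins hold only 3 and 21 shared regions.

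From low to high score, the IMR90-alone share in H1 H3K18ac was 1.75%, 4.08%, 7.77%, 9.43% and 7.94%. The IMR90 mark had no such order, at 2.44%, 3.02%, 2.83%, 3.14% and 1.59%. By width, IMR90-alone regions met H1 H3K18ac in 4.36% (3.70 to 5.14) of single windows, 8.56% (6.57 to 11.1) at 200 bp and 9.90% (6.50 to 14.8) at 300 bp. At 400 bp or more the share was 7 of 132 (5.30%, 2.59 to 10.5), against 190 of 693 shared regions (27.4%, 24.2 to 30.9). Scores differed too at a given width, with medians of 306.5 for IMR90-alone and 649 for shared regions at exactly 400 bp. Over all single windows the shares were 4.36% and 8.99% (6.64 to 12.05), at median scores of 45 and 140, but within score bins this order did not hold throughout. It was the opposite in the middle bin, as given above, and in the next bin the shares were 9.15% (5.43 to 15.0) and 14.2% (10.5 to 18.9), with overlapping intervals.

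**Figure D5:**
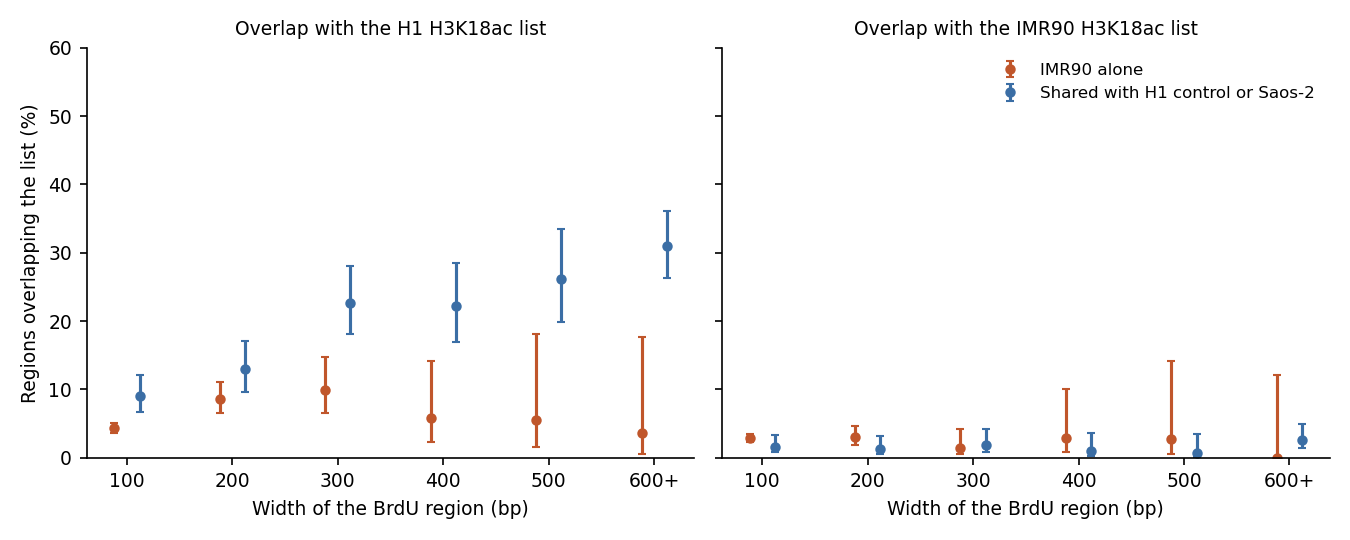
Percentage of IMR90 BrdU regions that overlap the H1 (left) and the IMR90 (right) H3K18ac list, by width in bp, with Wilson 95% intervals. IMR90-alone regions reach 9.90% in H1 H3K18ac at 300 bp and 3.57% at 600 bp or more (1 of 28), where shared regions reach 31.0%.

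Distances to the mark had the same direction as the overlaps. The nearest H1 H3K18ac region was at a median of 5.9 kb from IMR90-alone regions and 2.7 kb from shared ones. For IMR90 H3K18ac the order was turned, with 22.8 kb from IMR90-alone and 30.9 kb from shared regions. Within 1 kb, H1 H3K18ac was found at 22.3% (21.05 to 23.6) of IMR90-alone and 36.8% (34.5 to 39.1) of shared regions. Within the same distance IMR90 H3K18ac was found at 10.6% (9.67 to 11.6) and 6.70% (5.61 to 7.98). Nearness to another line's BrdU region did not order the H1 mark: the share of IMR90-alone regions that carried it was 6.16% (4.21 to 8.93) within 1 kb of H1 control or Saos-2, 4.11% from 1 to 10 kb, 5.58% from 10 to 100 kb and 5.15% (4.02 to 6.57) beyond 100 kb. It did not order the IMR90 mark either, at 1.72% (0.838 to 3.52), 3.61%, 2.17% and 3.69% (2.75 to 4.93) over the same distances.

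Both marks met at 37 IMR90-alone regions (0.919%), against 0.699% of shared regions and 0.853% of all IMR90 BrdU regions. The H1 mark was thus present at 37 of the 112 regions in the IMR90 H3K18ac list (33.0%, 25.01 to 42.2), against 12 of 28 such shared regions (42.9%, 26.5 to 60.9, an overlapping interval) and 35.0% of all such IMR90 BrdU regions. Taken the other way, the IMR90 mark was present at 37 of the 213 IMR90-alone regions in the H1 H3K18ac list (17.4%, 12.9 to 23.02). Among such shared regions it was present at 12 of 332 (3.61%, 2.08 to 6.21), and among all such IMR90 BrdU regions at 8.99%. These intervals did not overlap, but the sets were not matched in score or width. In H1, the H3K18ac regions involved had a median width of 300 bp for IMR90-alone and 200 bp for shared regions, at median score percentiles of 80.7 and 75.3. In IMR90 the widths were 600 and 800 bp, at percentiles of 76.1 and 80.9. The medians over the whole lists were 100 bp in H1 and 300 bp in IMR90, but a wider mark is met more readily, so nothing is read from that difference.

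Of the 10 highest IMR90-alone regions, 2 overlapped H1 H3K18ac and none IMR90 H3K18ac. The region ranked 467 on chromosome 14 lay wholly inside the H1 mark at chr14:105338201-105339100, which ranked 905 of the 65946 H1 H3K18ac regions. The region ranked 311 on chromosome 10 had 500 of its 1100 bp in the mark. Next by score with the H1 mark were chr17:80759201-80759700 (rank 544), chr17:30354301-30354600 (rank 761) and chr21:11085701-11085900 (rank 772), each with 100 bp inside it. The last had no IMR90 H3K18ac region within 4669 kb and no other IMR90 BrdU region within 5055 kb. It was not apart from the other lines, with a Saos-2 BrdU region at 13.7 kb and an H1 control region at 120 kb.

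The highest IMR90-alone region in IMR90 H3K18ac was chr19:47921801-47922200, at rank 966 only, with 100 of its 400 bp in the mark. It was followed by chr16:88048601-88048800 (rank 1133), which lay wholly inside it and 0.1 kb from H1 H3K18ac. The next 3 carried both marks. At chr16:122901-123200 (rank 1159) all 300 bp lay in H1 H3K18ac and 100 bp in the IMR90 mark, and no other IMR90 BrdU region was within 90.1 kb. The region chr16:2582301-2582600 (rank 1327) had the same overlaps. At chr11:62313001-62313500 (rank 1421) the IMR90 mark belonged to chr11:62311001-62313100, ranked 529 of 84471. Further regions with both marks were chr9:33265301-33265500 (rank 1507) and chr10:103454501-103454700 (rank 1562), and the chromosome 10 region lay wholly inside both.

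The BrdU list of H1 cells after EP300 and CREBBP knockdown was not used by the rule, but it came from the same line as H1 control. The rule removed every IMR90 region that met H1 control, so a low overlap here can be partly built in and was not tested. The knockdown list overlapped 7 IMR90-alone regions (0.174%, 0.0842 to 0.358), against 75 shared regions (4.37%, 3.50 to 5.44) and 1.43% of all IMR90 BrdU regions. It also overlapped 18 H1-alone regions (0.569%, 0.360 to 0.898) and 49 Saos-2-alone regions (1.21%, 0.914 to 1.59). The 7 had a median score of 157 and ranked between 1484 and 5515, and none overlapped H3K18ac in either list. The 5 highest were chr15:40285201-40285400, chr17:35088501-35088800, chr1:19027801-19028000, chr10:1278501-1278700 and chr2:71804601-71804700. Each shared 100 bp with the knockdown list. The last of them touched a Saos-2 region and the one on chromosome 10 lay 0.1 kb from one.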

How the data were processed

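BrdU-labelled DNA was sequenced from 3 cell lines (4 µg per pull-down) and H3K18ac chromatin from 2 (5000000 cells per immunoprecipitation), with 1 library per group. Reads were aligned with Bowtie 0.12.7 to hg19, per the submitters' processing notes. The region caller, its threshold and the use of the 6 inputs were not stated in what was used here, and the inputs were not analysed here. The deposited files are 6 lists with start, end and a score given by the authors for each region, per the file contents; the score was used only for ranks within a list. A higher threshold or lower depth in H1 control or Saos-2 shortens their lists, which adds to the regions found in IMR90 alone. Shortening the IMR90 list itself lowers that number, to 1223 when only its upper 50% by score was kept.

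Regions counted as overlapping from 1 bp, on the authors' grid of 100 bp windows. Shares have Wilson 95% intervals. No test was run, because no group had a replicate. Software was matplotlib 3.10.9, numpy 2.4.6, scipy 1.17.1, pandas 2.3.3 and Python 3.11.15, and the overlap code was tested on simulated data. Named regions were the 10 of highest score, the 5 highest in each H3K18ac list, in both and in the knockdown list, the 3 widest, the 3 highest on each side of the rule and the 3 fullest tiles. The region set and comparisons were chosen with earlier results of these data known. Chromosome ends were added after the data were seen. No gene annotation or sequence of hg19 was used here.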

Additional observations from a re-analysis of the deposited data

How the results depend on the processing

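The number of IMR90-alone regions stayed between 3011 (10 kb as the distance for sharing) and 4230 (upper 50% of the other lists by score) under 7 of 8 alternatives. Keeping the upper 50% of the IMR90 list, which by construction drops the weak regions, left 1223, with a median width of 200 bp and 9.08% in H1 H3K18ac. The share in the upper 50% by score was 33.1% when sharing needed 50% of the region and 26.7% when 1 kb sufficed. A close IMR90 neighbour was found for 4.74% within 1 kb and 68.6% within 100 kb, and a knockdown region within 1 kb for 0.994%.

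H1 H3K18ac met 22.3% of IMR90-alone regions within 1 kb, 4.27% in the stricter H3K18ac list and 4.36% of single windows. IMR90 H3K18ac met 10.6% within 1 kb, 2.21% in the stricter list and 0.919% at equal covered length. Relative to shared regions, the difference in H1 H3K18ac (-14.0 percentage points) was -5.16 when 50% of the region had to be marked, -6.75 at the central window, -11.0 in the stricter H3K18ac list, -11.0 in the upper 50% of the IMR90 list, -4.63 in single windows and -11.6 with 1 kb for sharing. Alternatives chosen after seeing the data weighted one set to the other. With shared regions weighted to the score bins of IMR90-alone regions the difference turned to 2.55, a value that rests on 3 and 21 shared regions in the lower 2 bins. Weighted to their widths it was -5.50. With IMR90-alone regions weighted to shared ones it was -11.0 over 5 score bins, -8.29 over 10 and -13.2 over widths. For IMR90 H3K18ac the difference of 1.15 was 3.88 within 1 kb. With IMR90-alone regions weighted to shared ones it was 0.554 over 5 score bins, 0.468 over widths and -0.0033 over 10 score bins. With shared regions weighted to IMR90-alone ones it was 0.991 over 5 score bins and 1.22 over widths. The unweighted interval included 0 in the upper 50% of the IMR90 list and in single windows. It also did so at equal covered length and when sharing needed 50% of the region. Per IMR90 region in place of per Mb, the highest and lowest autosome differed 1.49-fold. The cause was not tested for any change unless stated. No paired analysis was possible because each group had 1 library. Depth is unknown, so a region found in IMR90 alone may be under the threshold elsewhere.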
